A study of Mus musculus with 6 samples.

Results

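The mitosis and spindle genes described here are a list of 36 named genes, all measured, out of 18193 genes on the arrays. Where several probe sets read 1 gene alone, the one with the highest mean stands for it. The values are log2 expression levels from Affymetrix mouse arrays, 3 of wild-type (WT) cells and 3 of SAP-deficient cells. Both groups were primary CD4 T cells from spleen and lymph nodes that carried the OT-II transgene, which encodes a T cell receptor for an ovalbumin peptide. The SAP-deficient cells lacked SAP, an adaptor protein of SLAM-family receptors encoded by Sh2d1a. The labels name neither the Sh2d1a allele nor the age of the mice. Naive cells of both genotypes were sorted and stimulated for 3.5 days with the ovalbumin peptide, presented by splenocytes without T cells. Those splenocytes had been treated with mitomycin C, which blocks DNA replication, so the feeder cells were not meant to divide. The medium contained IL-6 (100 ng/ml) and IL-21 (50 ng/ml) and antibodies against TGF-β (20 µg/ml), IL-4 (10 µg/ml), IL-12 and IFN-γ, conditions described as polarising toward follicular helper T (Tfh) cells. Per the labels' protocol, the RNA came from proliferating cells that had not been synchronised. The arrays are called WT 1 to 3 and SAP-deficient 1 to 3 below. These numbers follow deposition order. No label states a pairing or says that arrays of 1 genotype are separate mice or separate cultures, so a p-value here covers only the spread between these arrays, and how many separate animals or cultures lie behind them is not stated.

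In a dividing cell, cyclin-dependent kinase 1 (CDK1) bound to cyclins A and B starts mitosis, kinesins and other microtubule-binding proteins build the spindle, and kinetochores attach chromosomes to it. The spindle checkpoint holds the anaphase-promoting complex (APC/C) inactive until every chromosome is attached. The complex then marks cyclins and securin for destruction, and separase cuts the rings that hold sister chromatids together. Transcripts of most of these genes are low in resting T cells and accumulate in late S, G2 and M phase of activated ones. The DREAM and MuvB complexes with B-MYB and FOXM1 control them through the cell cycle homology region (CHR) of their promoters. Neighbouring CCAAT boxes are bound by another factor, NF-Y.

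Sh2d1a itself checked the labels: in SAP-deficient arrays it was at 5.47, 4.10 and 4.92, against 9.50, 8.52 and 9.39 in WT arrays (log2). Equally numbered arrays of the 2 genotypes resembled each other. After the genotype means were taken off, their correlations were 0.54, 0.73 and 0.60 for numbers 1 to 3, over probe sets that had not served to find the pairs. Those probe sets were read on the same arrays, so the correlations are no independent test of the pairing. Equally numbered arrays were also alike in transcripts that mark sex: Xist, expressed in female cells, was at 12.50, 8.21 and 5.81 in WT 1, 2 and 3 and 12.50, 8.19 and 6.26 in SAP-deficient 1, 2 and 3, and the Y-linked Eif2s3y was at 3.54, 9.96 and 9.80 and 2.91, 9.98 and 9.76. Arrays of 1 genotype thus differed in these transcripts and were not repeats of 1 RNA sample. Differences are given for each number as well as over all arrays. WT 3 stood apart in the mitotic genes. As a reading of RNA quality, the 3′ minus the 5′ control probe set of Gapdh was -0.032 (log2) in WT 3 and -0.029 to 0.021 in the other arrays, and for beta-actin these values were 0.40 and 0.34 to 0.45.

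Transcripts of mitosis were low in a single array, WT 3, and no gene of the list differed detectably between the genotypes over all arrays. Of the 36 genes, 35 had their lowest level in WT 3, against 24.7% of all genes measured. The gap between WT 3 and the next lowest array ran from 0.11 to 0.91 log2 units in these 35 genes, with a median of 0.59. In 27 genes this gap was wider than the whole range of the other 5 arrays. Relative to the median of the other 5 arrays, WT 3 was lower by 1.68-fold at the median of the list. The WT arrays were the more spread out, with a median SD of 0.48 against 0.13 in SAP-deficient arrays (n = 3 each). The WT SD was the larger in 33 of 36 genes, as it was in 55.9% of all genes.

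The direction of the genotype difference depended on the number. In number 3, SAP-deficient minus WT was positive in 35 of 36 genes (52.3% of all genes), with a median of 0.71 or 1.64-fold, and 29 genes reached 0.5 log2 units (1.94% of all genes). Foxm1 was the 1 gene with a negative value (47.7% of all genes), and 0 genes were lower by 0.5 (1.75%). In number 1 it was negative in 33 genes (45% of all genes), with a median of -0.22. In number 2 it was negative in 31 genes (53.3%) and positive in 5 (46.6%), with a median of -0.097. The medians over all genes were 0.018, -0.00892 and 0.00951. Lower values in numbers 1 and 2 with a higher one in number 3 were found in 29 genes of the list and in 12.6% of all genes. Only Pttg1 was higher in all 3 numbers (15.6% of all genes) and no gene was lower in all 3 (13.1%). With 1 array per genotype and number, these differences carry no test.

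**Figure D1:**
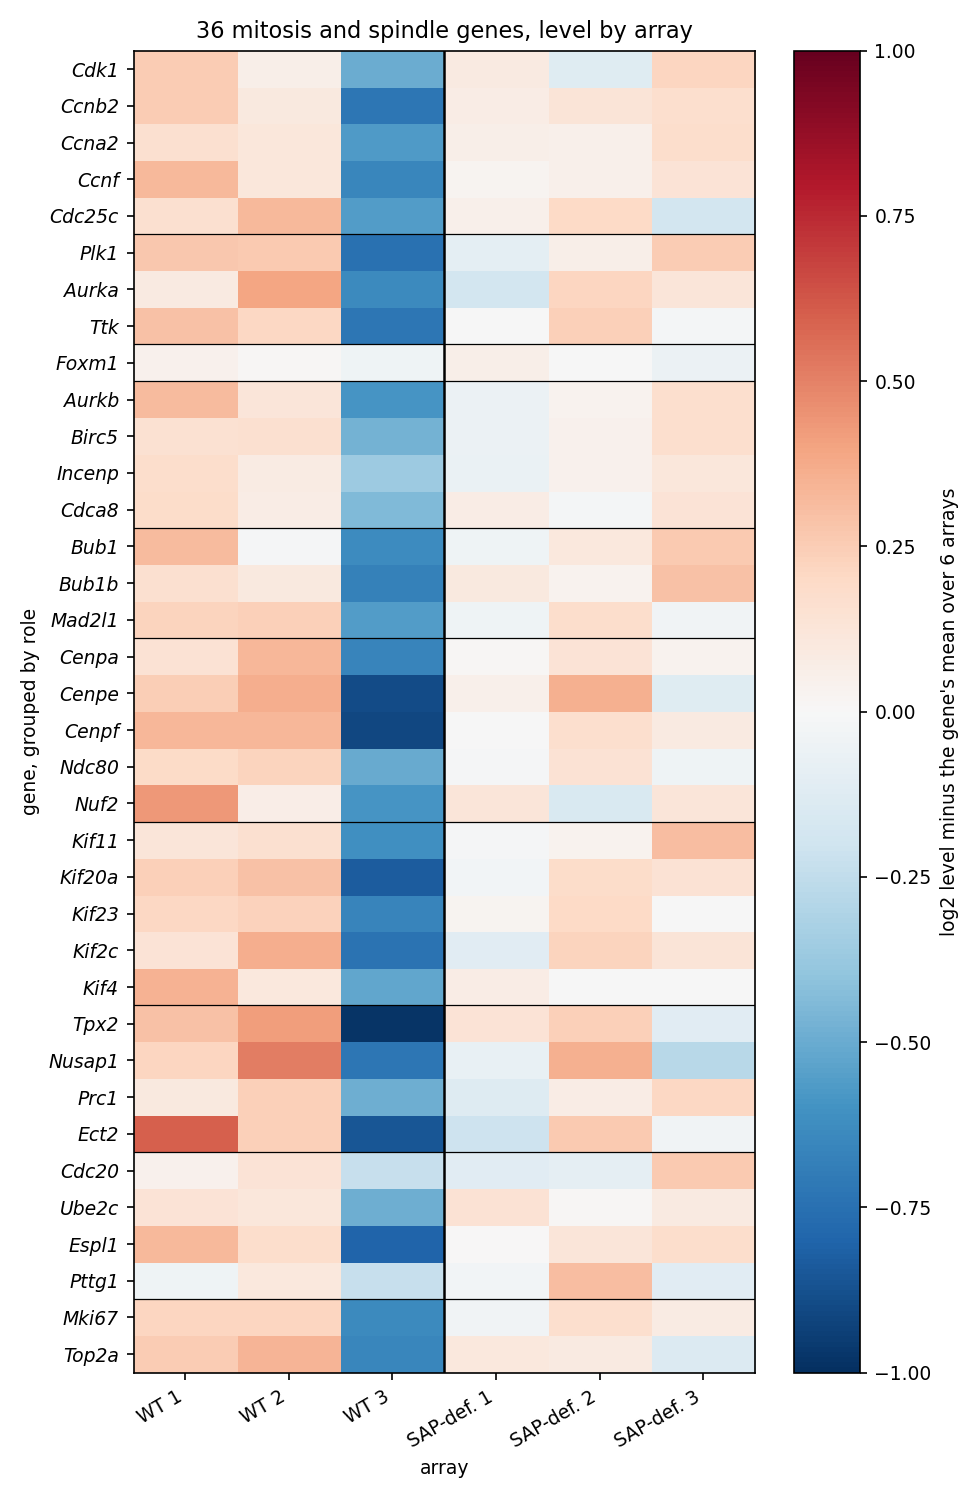
Level of each of the 36 genes in each array (columns), as the log2 value minus the gene's mean over the 6 arrays, with blue for low and red for high and lines between groups of genes with related roles. WT 3 holds the lowest value in 35 rows, and the Foxm1 row is nearly uniform.

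Over all arrays, 35 of 36 genes had a higher mean in SAP-deficient cells (53.3% of all genes), and the median change was 0.12 against 0.00782 over all genes. None of these changes passed the test: by limma with Benjamini-Hochberg adjustment over all genes, every gene of the list had an adjusted p of 1.00. Limma called 0 of 18193 genes in all (0%), with Sh2d1a at an adjusted p of 0.0501. At an unadjusted p under 0.05 there were 0 genes of the list and 239 genes in all (1.31%). All 36 95% intervals spanned 0, with SEs from 0.12 (Foxm1) to 0.34, and the changes that could not be told from 0 are those inside each gene's own interval. In no gene did the SAP-deficient arrays all lie above the WT arrays (2.38% of all genes) or all below them (2.94%). With the replicate block, that is with the array number as a term of the fit, the list again held 0 calls and 0 genes at an unadjusted p under 0.05. That fit called 1 gene of all (0.0055%), Sh2d1a, and gave 1110 genes (6.1%) an unadjusted p under 0.05. The smallest adjusted p of a listed gene was 0.850 there.

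Leaving out WT 3 turned the direction. Without it, 2 of 36 genes had a higher mean in SAP-deficient cells (49% of all genes) and the median change was -0.16. Limma called 0 genes of the list and 0 of all in that fit (0%), and Top2a was the only listed gene with an unadjusted p under 0.05 (1.48% of all genes). With both arrays of number 3 left out and the number kept as a block, 16 genes of the list were lower in SAP-deficient cells at an unadjusted p under 0.05, against 3.03% of all genes. None of the 36 was called in that fit, where 36 genes were called in all (0.198%), and the smallest adjusted p in the list was 0.317 (limma). The largest of these changes were -0.39 ± 0.14 (SE) for Ect2 and -0.28 ± 0.078 for Plk1. That fit rests on 2 arrays a genotype and leaves out WT 3, the lowest array in nearly all of these genes. Its direction therefore repeats that of the differences in numbers 1 and 2 and is no separate finding.

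**Figure D2:**
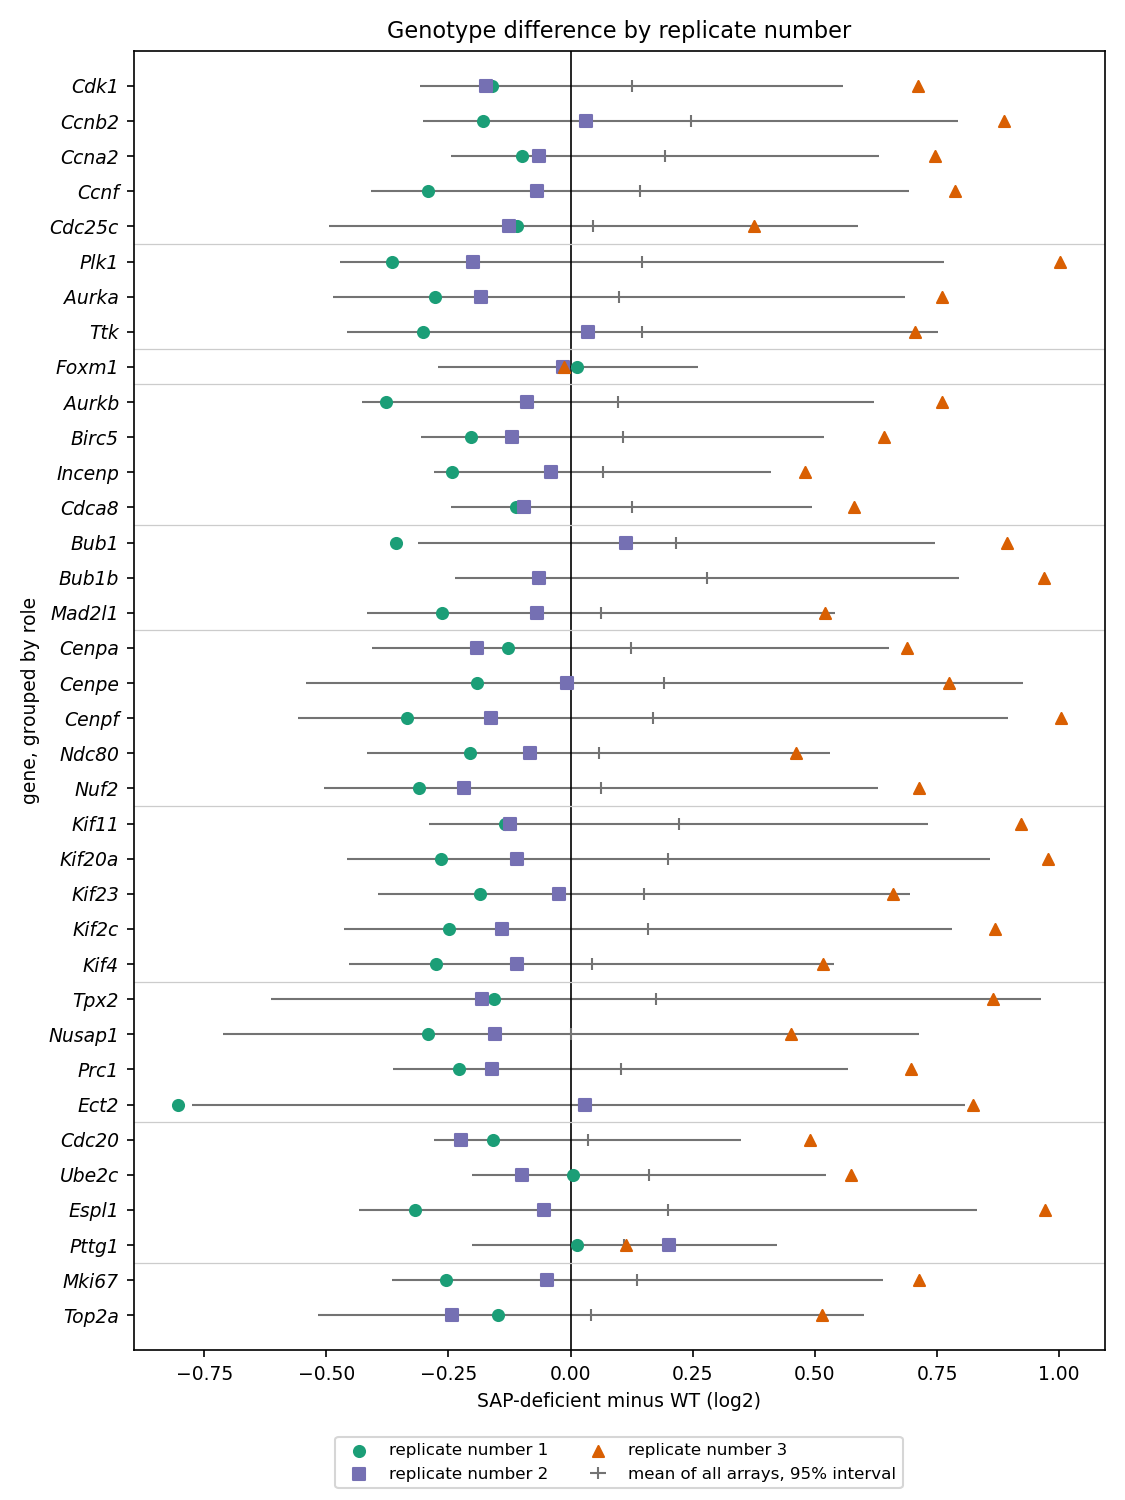
SAP-deficient minus WT (log2) for each gene and each array number (coloured symbols), with the change over all arrays and its 95% interval (grey). Triangles for number 3 lie to the right of 0 for 35 genes, while circles and squares for numbers 1 and 2 lie mostly to the left, and every interval spans 0.

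The promoters of these genes are shown next, as a description of the list. RefSeq promoter windows of build GRCm38.p6, running from 250 bases before to 50 bases after each annotated start, were found for 29 of the 36 genes, as 31 windows, since Prc1 and Ect2 have 2 overlapping windows each. They were searched on both strands for the CHR letters TTTGAA or TTCGAA and for CCAAT. A CHR match was found in 25 of 31 windows (80.6%), against 19.2% of all 32851 windows of the same length. CCAAT was found in 24 windows (77.4%, against 37.4%), and both together in 23 (74.2%, against 7.52%). At least 2 CCAAT matches stood in 51.6% of the windows, against 11.7%. The 2 kinds of match overlapped in 1 place. A match in the part shared by the 2 windows of Prc1 or of Ect2 was counted once for each window. Of 55 CCAAT matches, 35 were centred within 100 bases before the start (63.6%, against 43.8% of CCAAT matches in all windows). Of 35 CHR matches, 11 lay there (31.4%, against 30.5%), 10 lay farther before the start (28.6%, against 57.8%) and 14 lay after it (40%, against 11.6%). These matches describe letters in the windows and do not show binding.

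The 150 bases before the start are given for 4 genes in which both motifs stand in this stretch and for Pttg1, 1 of 5 genes with neither motif in the window. The other 4, Birc5, Mad2l1, Nuf2 and Nusap1, differed by 0.64, 0.52, 0.71 and 0.45 in number 3, against 0.11 for Pttg1. Capitals mark the CHR and CCAAT matches on either strand, and each sequence runs 5′ to 3′ along the gene. Cdk1 lies at chr10:69352913-69353062, minus strand, Cdc20 at chr4:118437344-118437493, minus strand, Ube2c at chr2:164769779-164769928, plus strand, Espl1 at chr15:102296143-102296292, plus strand and Pttg1 at chr11:43425982-43426131, minus strand.
Cdk1: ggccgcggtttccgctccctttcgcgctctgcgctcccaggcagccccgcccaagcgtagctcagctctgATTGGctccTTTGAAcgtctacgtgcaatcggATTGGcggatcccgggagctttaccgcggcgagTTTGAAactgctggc
Cdc20: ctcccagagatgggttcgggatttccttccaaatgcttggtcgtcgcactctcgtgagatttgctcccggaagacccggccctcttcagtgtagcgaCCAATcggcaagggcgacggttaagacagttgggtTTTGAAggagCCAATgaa
Ube2c: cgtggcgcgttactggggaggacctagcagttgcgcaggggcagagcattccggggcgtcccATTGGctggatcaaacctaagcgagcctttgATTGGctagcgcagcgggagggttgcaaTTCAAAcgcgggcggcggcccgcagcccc
Espl1: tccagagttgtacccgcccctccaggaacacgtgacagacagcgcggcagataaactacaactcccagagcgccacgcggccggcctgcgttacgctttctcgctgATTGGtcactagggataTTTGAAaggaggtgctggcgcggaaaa
Pttg1: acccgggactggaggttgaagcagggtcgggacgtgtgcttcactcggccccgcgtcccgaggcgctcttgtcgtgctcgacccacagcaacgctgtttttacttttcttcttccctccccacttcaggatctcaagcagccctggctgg
The Cdk1 stretch holds 2 CHR and 2 CCAAT matches, and those of Cdc20 and Ube2c hold 1 CHR and 2 CCAAT matches each. Among the genes with a window, the 23 with a CHR match had a median difference of 0.71 in number 3 (range 0.46 to 1.00). The 6 without one, Birc5, Cenpe, Mad2l1, Nuf2, Nusap1 and Pttg1, had a median of 0.58 (range 0.11 to 0.78). In numbers 1 and 2 the medians were -0.23 and -0.0995 with a match and -0.23 and -0.094 without one. Relative to the median of the other arrays, WT 3 lay at -0.77 with a match and -0.72 without one (medians). The difference between these groups of genes was not tested.

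**Figure D3:**
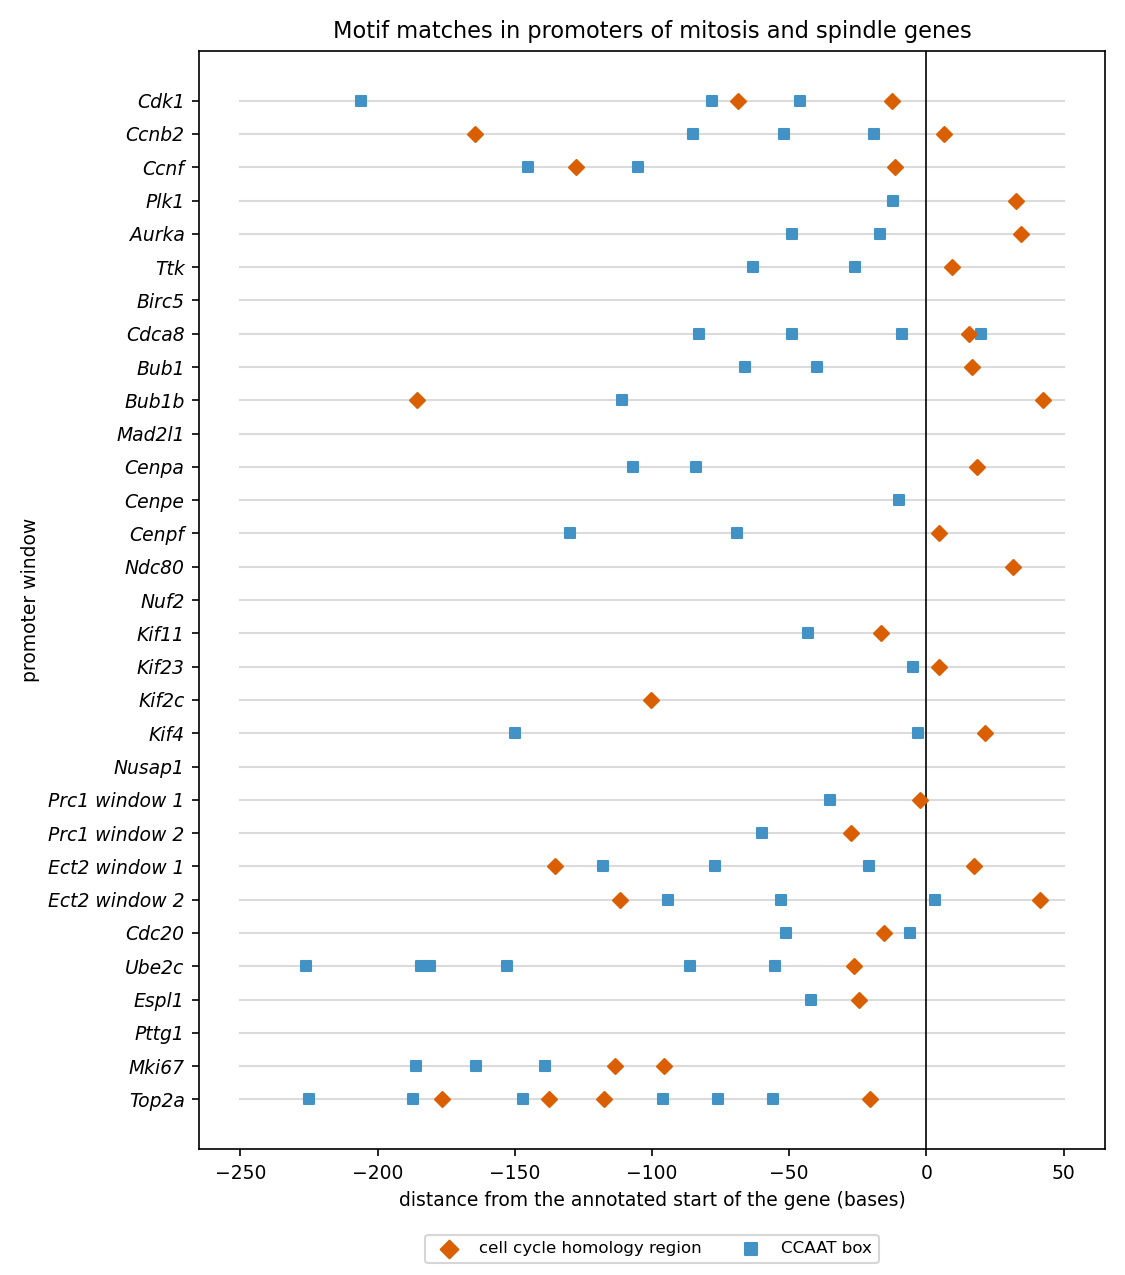
Position of CHR (diamonds) and CCAAT (squares) matches in the 31 promoter windows, in bases from the annotated start of the gene at 0; genes with 2 windows have 2 rows. Of 55 CCAAT squares, 35 lie in the 100 bases before the start, CHR diamonds are spread over both sides of the start, and Birc5, Cenpe, Mad2l1, Nuf2, Nusap1 and Pttg1 have no diamond.

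Cyclins and regulators of CDK1 were all lowest in WT 3. Cdk1, the kinase that drives entry into mitosis, was at 10.96, 10.77 and 10.22 in WT 1, 2 and 3 and 10.80, 10.59 and 10.93 in SAP-deficient 1, 2 and 3 (log2). WT 3 was the lowest array and the other 5 lay within 0.37 of each other, so the groups overlapped. Its change over all arrays was 0.13 ± 0.19 (SE, 95% interval -0.31 to 0.56). Ccnb2, a B-type cyclin that activates CDK1, was at 9.21, 9.06 and 8.24 in WT 1, 2 and 3 and 9.03, 9.09 and 9.13 in SAP-deficient 1, 2 and 3. WT 3 lay 0.79 below the next array, and the change was 0.25 ± 0.24 (SE, 95% interval -0.30 to 0.79), among the highest of the list. Ccna2, the cyclin of S and G2 phase, differed by -0.099, -0.066 and 0.75 in numbers 1 to 3. Ccnf, which encodes an F-box protein that limits several late-cycle proteins, differed by -0.29, -0.069 and 0.79. Cdc25c, whose phosphatase product activates CDK1, had the smallest difference of the 5 in number 3, 0.37, after -0.11 and -0.13 in the other numbers. In this gene SAP-deficient 3 was also low, at 6.61 against 6.84 and 6.99 in SAP-deficient 1 and 2.

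The 3 mitotic kinases were lower in SAP-deficient cells in number 1 and higher in number 3. Plk1, the polo-like kinase of centrosome maturation and chromosome segregation, was at 9.35, 9.35 and 8.34 in WT 1, 2 and 3 and 8.99, 9.15 and 9.34 in SAP-deficient 1, 2 and 3. SAP-deficient 3 lay beside WT 1 and 2, while WT 3 was 0.65 below the next array. Its differences were -0.36, -0.20 and 1.00, the last a 2.00-fold difference, and over all arrays the change was 0.15 ± 0.27 (SE, 95% interval -0.47 to 0.76). Aurka, the centrosomal Aurora kinase, differed by -0.28, -0.18 and 0.76, and Ttk, the checkpoint kinase MPS1, by -0.30, 0.036 and 0.71. All 3 kinases had their lowest level in WT 3.

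The chromosomal passenger complex corrects faulty attachments of chromosomes and then directs cytokinesis. Its kinase gene Aurkb was at 8.90, 8.71 and 7.996 in WT 1, 2 and 3 and 8.52, 8.62 and 8.76 in SAP-deficient 1, 2 and 3. WT 1 was the highest and WT 3 the lowest array, with all SAP-deficient arrays between them. Differences were -0.38, -0.090 and 0.76, and the change over all arrays was 0.097 ± 0.23 (SE). Birc5, encoding survivin, differed by -0.20, -0.12 and 0.64, Cdca8, encoding borealin, by -0.11, -0.095 and 0.58, and Incenp, the scaffold, by -0.24, -0.041 and 0.48. For all 4 subunits, by the probe sets that stand for them, the differences in numbers 1 and 2 were negative and that in number 3 positive. Another Incenp probe set shared this pattern, at -0.15, -0.16 and 0.84. Dimmer Incenp probe sets above the median level of the array did not, at 0.031, -0.19 and -0.29 and at -0.52, 0.15 and 0.030. The dimmest, under that level, was at -0.33, -0.013 and -0.30.

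Among genes of the spindle checkpoint, which delays anaphase until chromosomes are attached, Bub1b had the highest change over all arrays of the list. It was at 9.05, 8.99 and 8.21 in WT 1, 2 and 3 and 8.99, 8.92 and 9.18 in SAP-deficient 1, 2 and 3, and the change was 0.28 ± 0.22 (SE, 95% interval -0.24 to 0.80). The 2 other WT arrays lay within the range of the SAP-deficient arrays, and without WT 3 the change was 0.00940. Bub1, a checkpoint kinase at kinetochores, differed by -0.36 in number 1 and by 0.11 and 0.89 in numbers 2 and 3. Mad2l1, whose product binds CDC20 and blocks it, differed by -0.26, -0.069 and 0.52.

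Genes of the centromere and the kinetochore included Cenpf, which with Plk1 had the largest difference of the list in number 3. Cenpf, a large kinetochore protein that accumulates in G2, was at 8.45, 8.45 and 7.21 in WT 1, 2 and 3 and 8.12, 8.29 and 8.21 in SAP-deficient 1, 2 and 3. WT 3 lay 0.91 below the next array, and the difference in number 3 was 1.00, a 2.00-fold difference. Over all arrays the change was 0.17 ± 0.31 (SE, 95% interval -0.56 to 0.89). Cenpe, a kinesin that moves chromosomes to the spindle equator, differed by -0.19, -0.00754 and 0.78, with SAP-deficient 3 at 8.37, below SAP-deficient 1 and 2 at 8.54 and 8.84. Cenpa, the histone variant that marks centromeres, differed by -0.13, -0.19 and 0.69. Ndc80 and Nuf2, which form the microtubule-binding part of the kinetochore together, differed by -0.21, -0.083 and 0.46 and by -0.31, -0.22 and 0.71.

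All 5 kinesin genes were lower in SAP-deficient cells in numbers 1 and 2 and higher in number 3. Kif20a, needed for cytokinesis, was at 8.25, 8.30 and 7.18 in WT 1, 2 and 3 and 7.99, 8.19 and 8.15 in SAP-deficient 1, 2 and 3, and WT 3 lay 0.81 below the next array. Its change over all arrays was 0.20 ± 0.29 (SE, 95% interval -0.46 to 0.86). Kif11, the motor that pushes spindle poles apart, was highest in SAP-deficient 3 and differed by -0.14, -0.12 and 0.92. Kif2c, which takes microtubules apart at centromeres, differed by -0.25, -0.14 and 0.87. Kif23, a motor of the central spindle, differed by -0.19, -0.024 and 0.66, and Kif4, the chromokinesin, by -0.28, -0.11 and 0.52, the smallest difference in number 3 among the 5.

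Among genes of spindle assembly and the midzone, Tpx2 and Ect2 had the widest spread between WT arrays of the whole list, with SDs of 0.77 and 0.76 (n = 3). Tpx2, which activates Aurora A and starts microtubule growth around chromosomes, was at 8.80, 8.92 and 7.52 in WT 1, 2 and 3 and 8.64, 8.74 and 8.39 in SAP-deficient 1, 2 and 3. WT 3 was 1.22 below the median of the other arrays, the largest such distance in the list. SAP-deficient 3 was the second lowest array, and the change over all arrays was 0.18 ± 0.34 (SE, 95% interval -0.61 to 0.96). Ect2, whose product activates RhoA at the cleavage site, was at 8.40, 8.03 and 6.94 in WT 1, 2 and 3 and 7.59, 8.06 and 7.76 in SAP-deficient 1, 2 and 3. Here WT 1 was the highest array and WT 3 the lowest, and the difference was -0.80 in number 1, the largest negative one in the list, beside 0.029 and 0.82 in numbers 2 and 3. The change over all arrays was 0.016 ± 0.34 (SE). Nusap1, a microtubule-bundling protein, differed by -0.29, -0.15 and 0.45 and had a change of 0.00164 ± 0.31. Prc1, which crosslinks midzone microtubules, differed by -0.23, -0.16 and 0.70.

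Genes that act at the exit from mitosis ranged from 0.11 to 0.97 in number 3. Cdc20, the activator of the APC/C, was at 10.93, 11.02 and 10.65 in WT 1, 2 and 3 and 10.77, 10.79 and 11.14 in SAP-deficient 1, 2 and 3, with SAP-deficient 3 the highest array. Its differences were -0.16, -0.22 and 0.49 and the change over all arrays was 0.035 ± 0.14 (SE, 95% interval -0.28 to 0.35). The other Cdc20 probe sets, with means of 10.29 and 8.33, were lowest in SAP-deficient 2 and not in WT 3. They too were negative in numbers 1 and 2 and positive in number 3, by 0.42 and 0.37. Ube2c, the ubiquitin-conjugating enzyme of this complex, differed by 0.00480, -0.10 and 0.57, and Espl1, encoding separase, by -0.32, -0.054 and 0.97. Pttg1, encoding securin, the inhibitor of separase, was at 10.78, 10.93 and 10.59 in WT 1, 2 and 3 and 10.79, 11.13 and 10.71 in SAP-deficient 1, 2 and 3. It was the only listed gene with positive differences in all 3 numbers, 0.014, 0.20 and 0.11, and SAP-deficient 2 was its highest array. WT 3 was still the lowest array, but only 0.11 below the next one, SAP-deficient 3. The change was 0.11 ± 0.14 (SE, 95% interval -0.20 to 0.42). These values are from the probe set that stands for Pttg1. Another was also positive in all 3 numbers, at 0.038, 0.047 and 0.12, and lowest in WT 3. A dimmer probe set, still above the median level of the array, differed by 0.070, 0.11 and -0.17 and was lowest in SAP-deficient 3.

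Mki67, the proliferation marker Ki-67, which coats mitotic chromosomes, was at 10.83, 10.83 and 9.98 in WT 1, 2 and 3 and 10.57, 10.78 and 10.69 in SAP-deficient 1, 2 and 3. Top2a, the topoisomerase that untangles sister chromatids, was at 11.12, 11.20 and 10.21 in WT 1, 2 and 3 and 10.97, 10.96 and 10.73 in SAP-deficient 1, 2 and 3. Both were lowest in WT 3, by 0.60 and 0.52 below the next array, and differed in the order of the other arrays. The changes over all arrays were 0.14 ± 0.22 (SE, 95% interval -0.37 to 0.64) for Mki67 and 0.041 ± 0.24 (SE, 95% interval -0.52 to 0.60) for Top2a.

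Foxm1, the forkhead factor that activates many G2 and M phase genes, did not follow the list by the probe set that stands for it. It was at 6.90, 6.86 and 6.81 in WT 1, 2 and 3 and 6.91, 6.85 and 6.80 in SAP-deficient 1, 2 and 3, a range of 0.11 over all arrays, with differences of 0.013, -0.015 and -0.013. The other 3 Foxm1 probe sets gave different values. The first was at 6.67, 6.57 and 5.90 in WT 1, 2 and 3 and 6.28, 6.25 and 6.55 in SAP-deficient 1, 2 and 3, with WT 3 lowest and differences of -0.39, -0.32 and 0.66. The second also had its lowest value in WT 3, 6.55, with differences of 0.16, -0.086 and 0.23. The third was under the median level of the array and differed by -0.089, -0.069 and -0.15. The probe sets disagreed in number 3, and the level of Foxm1 is uncertain here.

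The remaining probe sets of these genes were read as well. The 36 genes had 77 single-gene probe sets, and 23 genes had more than 1. Of the 26 further probe sets above the median level of the array (5.75), 20 had WT 3 as the lowest array and 16 differed by at least 0.5 in number 3. Their median differences were -0.23, -0.14 and 0.66 in numbers 1 to 3. Of the 15 dimmer ones, 4 had WT 3 lowest and 2 reached 0.5, with a median of 0.14 in number 3. Over all 45037 probe sets of the array, WT 3 was the lowest in 21.1% and 1.99% reached 0.5.

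Other genes of mitosis, listed by their known roles, were also mostly lowest in WT 3. Among 21 further regulators of G2 and M phase, WT 3 was the lowest array for 16, and the median differences in numbers 1 to 3 were -0.19, -0.031 and 0.56. In number 3 they ran from -0.22 (Ccnb3) to 0.84 (Hmmr, a spindle protein), and 11 genes reached 0.5. Over all arrays 17 were higher, from -0.064 ± 0.084 (Ccnb3) to 0.21 ± 0.24 (Dlgap5, SE). The 35 further kinetochore and centromere genes had WT 3 as the lowest array in 27 cases and median differences of -0.14, -0.060 and 0.33. Values in number 3 ran from 0.000200 (Zwint) to 0.95 (Spag5, encoding astrin), and 14 reached 0.5. Over all arrays 26 were higher, from -0.071 ± 0.19 (Oip5) to 0.29 ± 0.28 (Spag5). Among 23 further spindle and kinesin genes, WT 3 was lowest for 19, with median differences of -0.13, -0.051 and 0.39 and 9 genes at 0.5 or more in number 3. The extremes there were the microtubule protein gene Psrc1 at -0.70 and the kinesin gene Kif20b at 1.00. Over all arrays 17 were higher, from -0.31 ± 0.34 (Psrc1) to 0.22 ± 0.25 (Cep192). Of 14 cytokinesis genes, 13 were lowest in WT 3, 9 reached 0.5 in number 3, and the median differences were -0.23, -0.045 and 0.56. In number 3, Rhoa was at -0.00310 and Depdc1a at 0.99. Over all arrays 11 were higher, from -0.028 ± 0.40 (Depdc1b) to 0.17 ± 0.22 (Racgap1, the partner of ECT2).

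Genes of other cell cycle functions were read in the same way. Of 39 genes of DNA replication, 36 were lowest in WT 3, and 6 reached 0.5 in number 3. Their median differences were -0.14, -0.046 and 0.39, with 0.088 for the licensing factor gene Cdc6 and 0.80 for the polymerase gene Pola1 as the extremes in number 3. Over all arrays 34 were higher, from -0.14 ± 0.21 (Cdc6) to 0.22 ± 0.31 (Pola1, SE). The 19 condensin and cohesin genes, which shape chromosomes and hold sister chromatids together, had median differences of -0.20, 0.00626 and 0.34, and 15 were lowest in WT 3. Number 3 ran from -0.038 (Wapl, which releases cohesin) to 0.73 (the condensin subunit gene Ncapd2), with 5 genes at 0.5 or more. Over all arrays 16 were higher, from -0.074 ± 0.11 (Nipbl) to 0.21 ± 0.15 (Stag1). The 24 genes of G1 cyclins, their kinases and E2F factors had median differences of -0.060, -0.017 and 0.20, with 15 lowest in WT 3 and 1 at 0.5 or more in number 3. Ccnd1 was at -0.49 and E2f8, a repressor of E2F targets, at 0.55 in that number. Over all arrays 18 were higher, from -0.28 ± 0.20 (Ccnd1) to 0.19 ± 0.28 (E2f7). Genes of the APC/C, the complex that CDC20 and UBE2C work with, had median differences of 0.012, -0.026 and 0.11. Of these 15 genes, 11 were lowest in WT 3 and 0 reached 0.5. They ran from -0.10 (Cdc16) to 0.36 (Ube2s) in number 3, and over all arrays 10 were higher, from -0.14 ± 0.16 (Anapc11) to 0.14 ± 0.089 (Ube2s). Ube2s encodes a ubiquitin-conjugating enzyme that works with the complex and not a subunit. Inhibitors of cyclin-dependent kinases and p53 targets restrain division. Of 18 genes, 4 were lowest in WT 3 and the median differences were 0.081, 0.060 and 0.029. Number 3 ran from -0.49 (Sesn2) to 0.36 (Sesn1), and 0 genes reached 0.5. Over all arrays 9 were higher, from -0.27 ± 0.20 (Cdkn1c, encoding p57) to 0.40 ± 0.099 (Cdkn2a, the p16 and p19 locus), the last with an unadjusted p under 0.05 and an adjusted p of 1.00 (limma). No gene of these lists was called, and differences between lists were not tested.

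**Figure D4:**
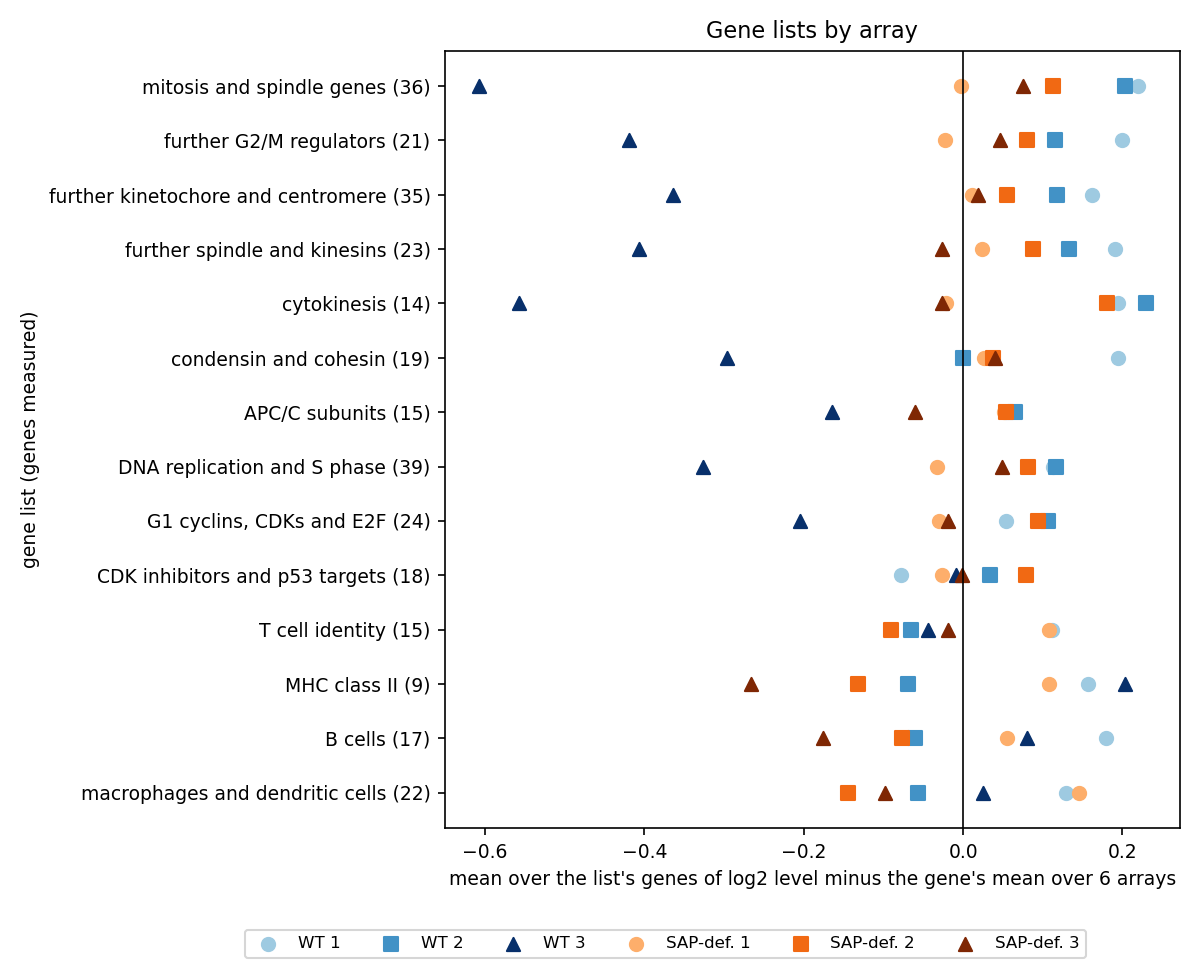
Mean deviation of each gene list in each array, as the log2 level minus the gene's own mean over the 6 arrays, for WT arrays (blue) and SAP-deficient arrays (orange to brown), with circles, squares and triangles for numbers 1 to 3. WT 3 (dark blue triangles) lies at -0.61 for the 36 genes and at -0.56 for cytokinesis genes, at -0.33 for DNA replication and at -0.00856 for CDK inhibitors and p53 targets.

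Markers of the cells in the culture were read beside these values, since a bulk level falls both with fewer dividing cells and with less RNA per dividing cell, and these cannot be told apart here. The 15 measured genes of T cell identity were all above the median level of the array. Their summed level, taken as the log2 of the sum of linear values, was 15.44 to 15.67 in WT and 15.42 to 15.70 in SAP-deficient arrays. Their median differences were 0.023, -0.029 and 0.034 in numbers 1 to 3, and changes over all arrays ran from -0.25 ± 0.18 (the costimulatory receptor gene Cd28) to 0.25 ± 0.089 (Skap1, SE), with 10 of 15 higher. In WT 3 this list lay at -0.044 relative to its own mean, against -0.61 for the mitotic genes.

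Genes of MHC class II presentation, expressed by antigen-presenting cells such as those among the feeder splenocytes, were lower in SAP-deficient 3 than in WT 3. Of 9 measured genes, 1 was higher over all arrays, the median change was -0.26, and changes ran from -0.31 ± 0.23 (H2-Oa) to 0.020 ± 0.15 (H2-DMb2, SE). Median differences were -0.024, -0.062 and -0.52, with -0.80 for H2-Ob and 0.12 for H2-DMb2 as the extremes in number 3, and the summed level was 11.54 to 11.86 in WT and 11.37 to 11.83 in SAP-deficient arrays. The 17 B cell markers had median differences of -0.091, -0.024 and -0.21, 3 were higher over all arrays, from -0.42 ± 0.25 (Ebf1) to 0.25 ± 0.099 (Fcrla), and the summed level was 12.29 to 12.57 in WT and 12.28 to 12.52 in SAP-deficient arrays. In number 3 they ran from -0.88 (Cr2) to 0.34 (Fcrla). Of 22 macrophage and dendritic cell markers, 8 were higher, from -0.30 ± 0.28 (Cd14) to 0.11 ± 0.11 (C1qb), with median differences of 0.044, -0.13 and -0.14 and summed levels of 12.40 to 12.51 and 12.30 to 12.55. Their number 3 values ran from -0.83 (Cd14) to 0.28 (Csf1r). Under the median level of the array lay 2 of 9 MHC class II, 7 of 17 B cell and 8 of 22 macrophage and dendritic cell genes. Relative to its own mean, the MHC class II list lay at 0.20 in WT 3, its highest array, and at -0.27 in SAP-deficient 3, its lowest. The B cell list lay at 0.080 in WT 3, and the macrophage and dendritic cell list at 0.025. Both of these lists were higher in WT 1, at 0.18 and 0.13. The part of these cells in the low mitotic values of WT 3 was not tested.

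The variation of the mitotic genes was also divided between array number and genotype. For a gene of the list, the number held 45.2% of the variance over the 6 arrays at the median, the genotype 4.4%, and what was left, a genotype difference that changed with the number, 49.7%. Over all genes these medians were 66.9%, 6.36% and 16.8%. With 1 array for each genotype and number, a difference that changes with the number and the spread between single arrays cannot be told apart.

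**Figure D5:**
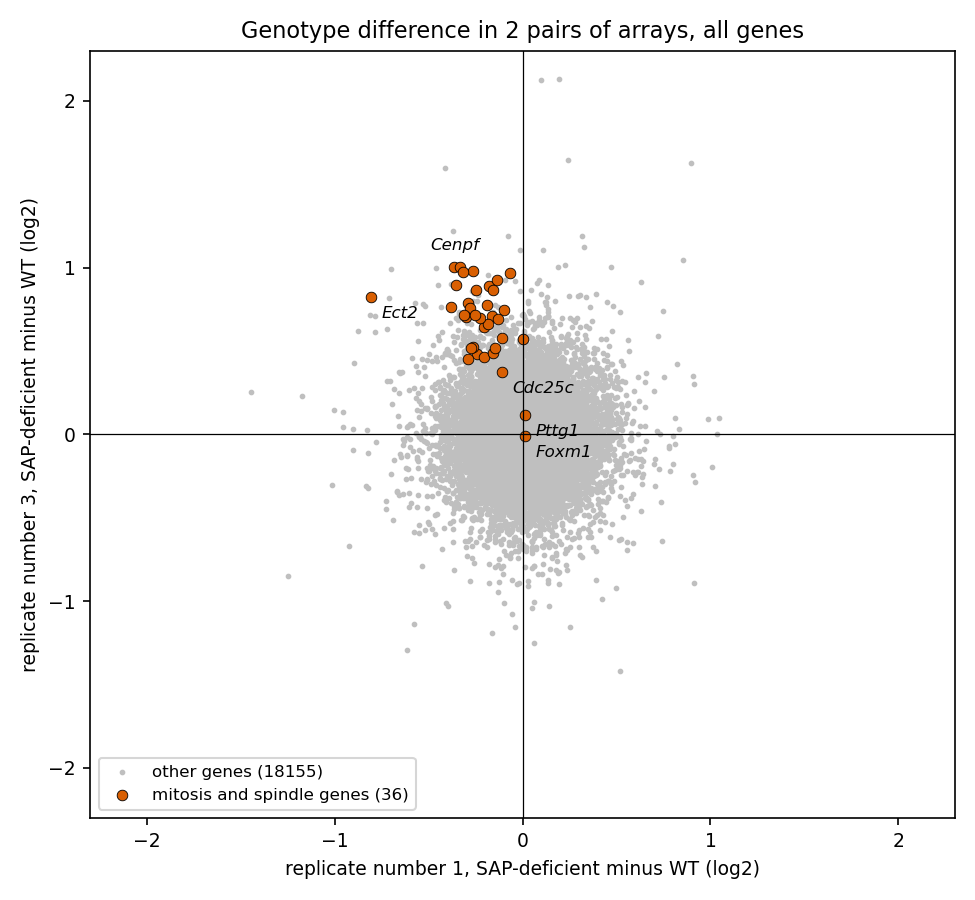
SAP-deficient minus WT (log2) in array number 1 (horizontal) and number 3 (vertical), with 1 point a gene; the 36 mitosis and spindle genes are orange, other genes grey, and 2 genes outside the axes, Sh2d1a among them, are not drawn. Of the 36 genes, 33 lie left of 0 and 35 above 0, and Pttg1 and Foxm1 lie near the centre.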

How the data were processed

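Processing bears on these values as follows. The authors deposited log2 expression levels. Per the submitters' processing notes, they come from Affymetrix Expression Console with RMA, a method that subtracts background, gives all arrays 1 distribution and combines the probes of a set. RMA compresses differences of dim probe sets and hides a change in total RNA per cell. Their versions and the genome build are not given here by label or header. Per the labels, 500 ng of RNA was labelled for each array. From the 45101 probe sets, 64 controls were left out. The platform annotation gave 1 gene for 34945, more than 1 gene for 932 and no gene for 9160. Symbols follow RefSeq (GRCm38.p6), which matched 34741. The 6 array medians ran from 5.73 to 5.76.

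Limma (version 3.58.1, R version 4.3.3) was fitted to all 45037 probe sets with genotype as the only term and an intensity trend in eBayes. P-values were adjusted by Benjamini-Hochberg over the 18193 genes, with a call at an adjusted p under 0.05. The fit was tested on simulated data with independent noise. Those data held no likeness by array number and no outlying array, so the fit was not tested for such features. Which arrays pair was worked out on the odd rows of the table and read again on the even rows of the same arrays. The pairs had equal numbers and served as the replicate block; the labels state no pairing. The alternatives were 18 settings of moderation, filter, normalization, array weights, probe set choice, block and left-out arrays. The genes and lists were chosen with earlier results of these data known. Named are all 36 genes, Sh2d1a, sex-linked genes, and of each list described the genes with the highest and lowest change over all arrays and in number 3. No array was dropped or imputed in the comparison of all arrays, and the number of arrays limits the precision. List genes without a single-gene probe set here were not analysed.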

Additional observations from a re-analysis of the deposited data

How the results depend on the processing

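The alternatives left the main outcome in place: in none of the 18 was a mitotic gene called. Over all genes, 1 gene was called with robust variance, without _x_at and _s_at probe sets, with the replicate block and in the block without pair 2, 3 in the block without pair 1 and 36 in the block without pair 3; leaving out single arrays gave 0 to 1. The direction of the list was less stable. The count of higher genes, 35 of 36 over all arrays, was 11 with array weights and 1 in the block without pair 3, and 2 to 36 on leaving out single arrays, lowest without WT 3. The median change of the list turned to -0.015 with array weights and to -0.16 in the block without pair 3, and ran from -0.16 (without WT 3) to 0.28 (without WT 1) on leaving out single arrays. Leaving out 1 array unbalances the pairs, so differences between numbers enter such values. Array weights gave WT 3 the lowest weight, 0.53. No other call changed with the replicate block.

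Changes that turned sign, on the log2 scale, were as follows. With array weights they were Ccnf -0.00572, Cdc25c -0.077, Plk1 -0.030, Aurka -0.062, Ttk -0.031, Aurkb -0.050, Birc5 -0.00203, Incenp -0.029, Mad2l1 -0.078, Cenpa -0.015, Cenpe -0.011, Cenpf -0.040, Ndc80 -0.064, Nuf2 -0.060, Kif23 -0.000507, Kif2c -0.016, Kif4 -0.076, Tpx2 -0.027, Nusap1 -0.19, Prc1 -0.016, Ect2 -0.25, Cdc20 -0.018, Mki67 -0.015 and Top2a -0.094. In the block without pair 3 they were Cdk1 -0.17, Ccnb2 -0.075, Ccna2 -0.082, Ccnf -0.18, Cdc25c -0.12, Plk1 -0.28, Aurka -0.23, Ttk -0.13, Aurkb -0.23, Birc5 -0.16, Incenp -0.14, Cdca8 -0.10, Bub1 -0.12, Bub1b -0.066, Mad2l1 -0.17, Cenpa -0.16, Cenpe -0.099, Cenpf -0.25, Ndc80 -0.14, Nuf2 -0.26, Kif11 -0.13, Kif20a -0.19, Kif23 -0.10, Kif2c -0.19, Kif4 -0.19, Tpx2 -0.17, Nusap1 -0.22, Prc1 -0.19, Ect2 -0.39, Cdc20 -0.19, Ube2c -0.047, Espl1 -0.19, Mki67 -0.15 and Top2a -0.20. A second quantile normalization gave Nusap1 -0.026 and Ect2 -0.00300, centring on array medians Foxm1 0.00394, and averaging a gene's probe sets Incenp -0.046, Tpx2 -0.00154 and Nusap1 -0.014.

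Leaving out single arrays moved the changes of listed genes over these ranges: Cdk1 -0.091 to 0.28, Ccnb2 -0.053 to 0.43, Ccna2 -0.041 to 0.32, Ccnf -0.15 to 0.34, Cdc25c -0.22 to 0.22, Plk1 -0.19 to 0.32, Aurka -0.19 to 0.32, Ttk -0.18 to 0.33, Foxm1 -0.034 to 0.023, Aurkb -0.17 to 0.28, Birc5 -0.10 to 0.21, Incenp -0.099 to 0.17, Cdca8 -0.066 to 0.25, Bub1 -0.045 to 0.43, Mad2l1 -0.20 to 0.20, Cenpa -0.17 to 0.32, Cenpe -0.21 to 0.42, Cenpf -0.25 to 0.38, Ndc80 -0.18 to 0.18, Nuf2 -0.22 to 0.29, Kif11 -0.030 to 0.36, Kif20a -0.17 to 0.40, Kif23 -0.14 to 0.30, Kif2c -0.17 to 0.38, Kif4 -0.21 to 0.23, Tpx2 -0.27 to 0.43, Nusap1 -0.36 to 0.26, Prc1 -0.12 to 0.25, Ect2 -0.41 to 0.32, Cdc20 -0.085 to 0.11, Ube2c -0.044 to 0.27, Espl1 -0.15 to 0.41, Pttg1 -0.017 to 0.19, Mki67 -0.15 to 0.28 and Top2a -0.28 to 0.22.

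Of the other named genes, in the block without pair 3 Ccnb3 0.013, Spag5 -0.047, Racgap1 -0.067, Pola1 -0.071 and H2-DMb2 -0.028; in the block without pair 1 Oip5 0.043, Depdc1b 0.12, Nipbl 0.015, Cdc6 0.00763 and H2-DMb2 -0.010; in the block without pair 2 Oip5 0.00919 and Depdc1b 0.11; without _x_at and _s_at probe sets Ube2s -0.087; after averaging probe sets H2-DMb2 -0.14 turned sign. Ranges on leaving out single arrays were Dlgap5 -0.070 to 0.39, Oip5 -0.28 to 0.040, Spag5 -0.065 to 0.49, Psrc1 -0.64 to 0.038, Cep192 -0.078 to 0.39, Depdc1b -0.48 to 0.35, Racgap1 -0.10 to 0.31, Nipbl -0.15 to 0.019, Cdc6 -0.32 to 0.00888, Pola1 -0.17 to 0.46, E2f7 -0.035 to 0.49 and H2-DMb2 -0.070 to 0.15.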

Other observations

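Over all genes measured, 353 were at least 0.5 log2 units higher in SAP-deficient 3 than in WT 3, and 318 were at least 0.5 lower. Mitosis and spindle genes made up 29 of the higher ones (8.22% of them and 80.6% of the list), and genes of the other 8 cell cycle lists made up 55 (15.6% of them and 29.3% of the 188 measured). A CHR match stood in the promoter windows of 90 of the 286 higher genes with a window (31.5%), of 37 of 241 lower genes (15.4%) and of 17.5% of all measured genes with a window. Among the higher genes outside the mitotic and cell cycle lists the share was 19.4% (42 of 217). These genes were picked by the difference itself, so the shares are a description.

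By list, the share of genes with a CHR match was 79.3% for the 36 genes, 65.0% for further spindle and kinesin genes, 58.3% for cytokinesis, 57.1% for condensin and cohesin, 48.4% for further kinetochore genes and 46.7% for further G2/M regulators. It was 29.4% for G1 cyclins, their kinases and E2F factors, 25.8% for DNA replication, 14.3% for APC/C genes and 5.88% for CDK inhibitors and p53 targets. In the same order, the number 3 medians of the first group of lists were 0.71, 0.39, 0.56, 0.34, 0.33 and 0.56. Those of the second group were 0.20, 0.39, 0.11 and 0.029. Among lists outside the cell cycle, the CHR share was 33.3% for T cell identity, 23.1% for B cells and 15.4% for the Tfh-like list. It was 12.5% for CD8 T, NK and NKT cells, 5.88% for macrophages and dendritic cells and 0% for MHC class II. In the same order, their number 3 medians were 0.034, -0.21, 0.00940, 0.086, -0.14 and -0.52. A link between share and median was not tested. The Tfh-like list had median differences of -0.050, -0.12 and 0.00940 in numbers 1 to 3. Its changes over all arrays ran from -0.27 ± 0.40 (Tox) to 0.39 ± 0.19 (Maf, SE), and its differences in number 3 from -0.72 (Cxcr5) to 0.77 (Maf). Markers of CD8 T, NK and NKT cells had median differences of -0.14, 0.095 and 0.086, changes from -0.42 ± 0.24 (Klrk1) to 0.35 ± 0.34 (Eomes) and differences in number 3 from -0.55 (Klrk1) to 0.51 (Gzma), with 2 of 11 genes under the median level of the array. No gene of either list was called (limma).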
